A study of Mus musculus with 12 samples.

Results

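Regulatory T cells induced in culture (iTreg) were set against conventional CD4 T cells (Tconv) by ATAC-seq, which tags open chromatin with a transposase. The comparison took 6 of the 12 libraries of the study: 2 iTreg, 2 donor Tconv and 2 host Tconv libraries. All cells were mouse T cells of the Balb/c strain. The iTreg cells were sorted as CD3+CD4+CD25+LAP+, and their library names give CD45.2 positive WT Balb/c cells; LAP is the latent TGF-beta peptide. The sources used here do not give how they were cultured. Donor Tconv cells carried the 6.5TCR, a transgenic receptor for influenza hemagglutinin, had been moved into Aire-HA hosts, which express that antigen under Aire control, and had not become regulatory; they were sorted from bone marrow 14 days later as CD45.1-CD45.2+CD3+CD4+CD25-. Host Tconv cells came from the bone marrow of the recipients, are titled WT, bear Aire-HCO in their library names, and were sorted as CD45.1+CD45.2-CD3+CD4+CD25-. The remaining 6 libraries, which played no part in classing regions with all peaks, hold regulatory cells formed in vivo: donor Treg (converted 6.5TCR cells, CD25+LAP+), host pTreg (CD25+CTLA4+, without Nrp1) and host tTreg (CD25+CTLA4+, with Nrp1). Library names carry the run code BW13 for the Tconv and donor Treg libraries, DR31 for the host Treg libraries and none for the iTreg libraries. Culture, tissue and run thus cannot be told apart between iTreg and Tconv, nor receptor from these between iTreg and donor Tconv. The iTreg and host Tconv cells are both labelled WT. Nothing in the labels ties the replicates to separate animals or cultures, so the p-values measure only the spread between these libraries, which may be technical.

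Regulatory T cells restrain other T cells and are defined by the transcription factor Foxp3. They arise in the thymus or, in the periphery and in culture, from conventional cells that meet antigen with TGF-beta and IL-2. Naive conventional cells hold open the enhancers of factors such as Tcf7, Lef1, Satb1 and Bach2. A T cell receptor signal opens sites bound by AP-1, BATF, NFAT and NF-kappaB.

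Merging peaks of the 6 lists that overlapped by 1 bp or more gave 73741 regions. A region was called iTreg only if both iTreg lists and none of the 4 Tconv lists had a peak there, and Tconv only in the opposite case. By this rule 14545 regions were iTreg only (19.7% of all merged regions) and 2129 were Tconv only (2.89%). All 6 libraries had a peak at another 30608 regions, and 26459 fell in neither class, among them 8137 with a peak in a single iTreg library and in no Tconv library. The rule is unequal, since iTreg only needs a peak in 2 lists and Tconv only in 4. Against the 2 donor Tconv lists alone, 15489 regions were iTreg only and 4133 Tconv only. Against the 2 host Tconv lists alone the counts were 17599 and 2560. The iTreg lists were longer, so the comparison was repeated with the 28394 widest peaks of each list, the length of the shortest of all 12 lists, an in vivo Treg one. At this equal length 3986 of 39143 regions were iTreg only (10.2%) and 2960 were Tconv only (7.56%). Of these Tconv-only regions 63.6% had a narrower peak in both full iTreg lists, while 8.33% of the iTreg-only ones had one in all 4 full Tconv lists, so Tconv only at equal length often means a peak too narrow to be kept in iTreg. With 2 libraries against 4, no region could pass a test of its own, and these counts are descriptions.

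**Figure D1:**
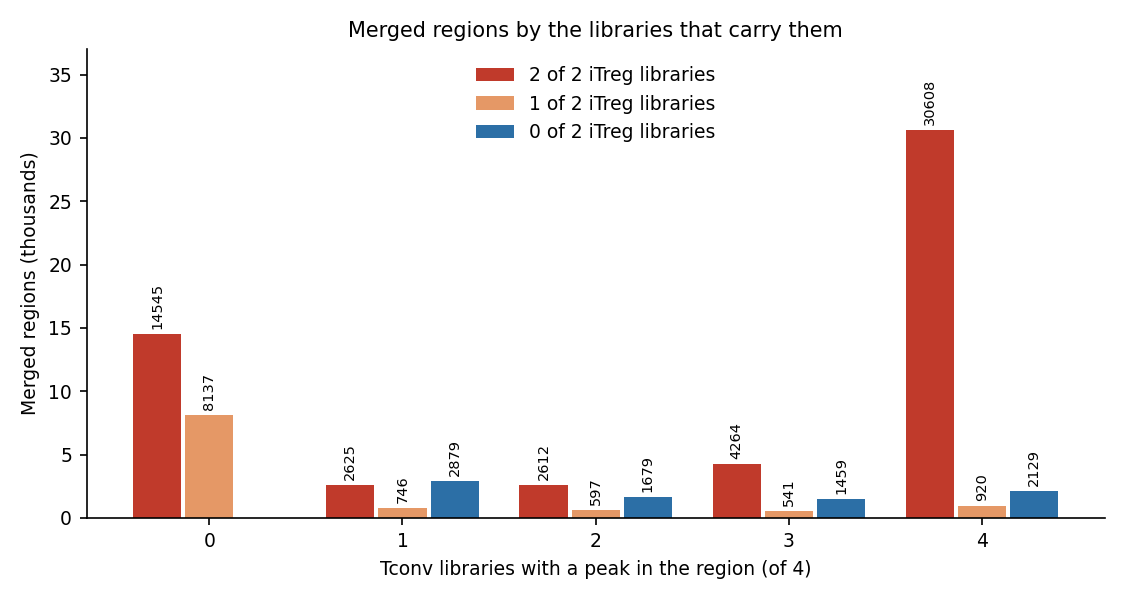
Number of merged regions (vertical axis, in units of 1000) by how many of the 4 Tconv libraries (horizontal axis) and of the 2 iTreg libraries (colours) had a peak there. The 14545 iTreg-only regions are the left red bar and the 2129 Tconv-only regions the right blue bar, and 30608 regions were shared by all 6 libraries.

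The iTreg libraries held 58357 and 63207 peaks, against 47193 and 44350 in donor Tconv and 37050 and 44465 in host Tconv libraries. Means were 60782 ± 3429 (SD, n = 2) in iTreg and 43264.5 ± 4346 (SD, n = 4) in Tconv libraries, and the ranges did not overlap. The two-sided exact permutation test gave p = 0.133, the smallest value that the 15 splits allow, so no difference between these groups of libraries could reach a usual threshold. The same p, 0.133 also after Benjamini-Hochberg adjustment over 5 measures, was found for each measure below, none of which overlapped between the groups. Median peak width was 436 and 447 bp in iTreg libraries, against 493, 482, 452 and 520 bp in Tconv libraries. The peaks covered 38.0 and 42.6 Mb in iTreg libraries, against 33.2, 30.2, 23.4 and 32.9 Mb in Tconv libraries. Peaks within 1 kb of an end of a protein-coding gene made up 20.3% and 19.2% in iTreg lists, against 22.5%, 23.8%, 27.3% and 23.4% in Tconv lists. Within 1 kb of a RefSeq start the shares averaged 19.1% ± 0.738 in iTreg and 23.6% ± 2.13 in Tconv lists (SD, n = 2 and n = 4). The iTreg lists were thus longer, with narrower peaks and a smaller share of them at gene ends. The number of peaks at gene ends was larger, with 11850 and 12133 in iTreg libraries, against 10602, 10535, 10111 and 10400 in Tconv libraries. In bulk libraries of this kind, fewer cells with an open site and less signal per cell cannot be told apart, and the depth behind a list is unknown, so a missing peak is a peak not listed and not a closed site.

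**Figure D2:**
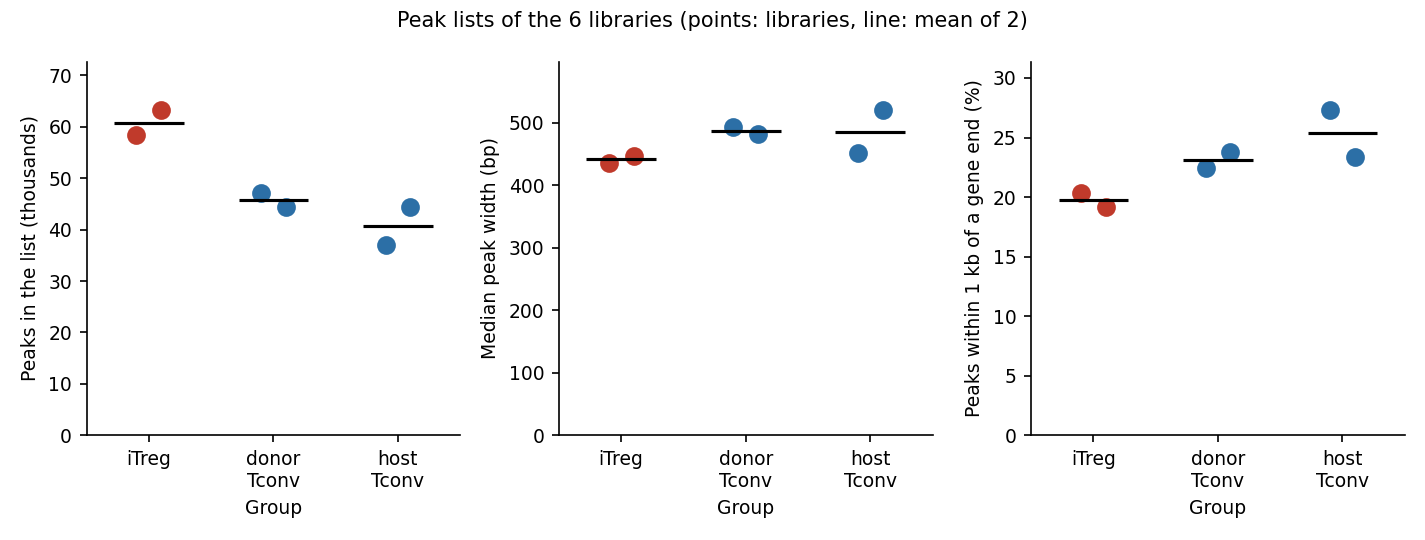
Peaks per list (in units of 1000), median peak width (bp) and share of peaks within 1 kb of a gene end (%) for each library (points) and the mean of each group of 2 (lines). The iTreg libraries lie above all Tconv libraries in peak number, between 58357 and 63207, and below them in the other 2 measures.

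The differing regions lay mostly away from gene starts. Of the iTreg-only regions, 7.65% lay within 1 kb of a RefSeq start, against 4.37% of the Tconv-only regions, 30.3% of the regions shared by all 6 libraries and 16.4% of all merged regions. Median widths were 353 bp for iTreg-only, 487 bp for Tconv-only and 944 bp for shared regions. At equal list length the shares near a start were 14.5% for iTreg-only and 4.71% for Tconv-only regions. Of the iTreg-only regions, 67.4% were over 10 kb from the nearest start, against 68.8% of the Tconv-only regions and 50.2% of the shared ones.

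Regulatory cells formed in vivo seldom had peaks at iTreg-only regions, while on average they had them at 82.0% of the regions shared by all 6 libraries. Averaged over the 6 in vivo Treg libraries, which did not choose these regions, 5.85% ± 2.06 of the iTreg-only regions had a peak (SD, n = 6 libraries, from 3.56% to 8.81%), against 38.2% ± 6.25 of the Tconv-only regions (from 28.2% to 46.9%) and 42.3% ± 3.99 of all merged regions. In every one of the 6 libraries the share was lower for iTreg-only than for Tconv-only regions. No in vivo Treg library had a peak at 12710 of the iTreg-only regions (87.4%), against 941 of the Tconv-only regions (44.2%). All 6 had one at 264 iTreg-only regions (1.82%) and at 492 Tconv-only regions (23.1%). The in vivo Treg lists are shorter, from 28394 to 37934 peaks, and the number in their library names, at most 17000, is lower than the 42000 to 50000 of the 6 libraries compared; what it counts is not stated. With all 12 lists at equal length, the means were 16.6% ± 1.99 for iTreg-only and 56.1% ± 4.51 for Tconv-only regions, against 63.5% ± 1.27 for all regions, again lower for iTreg-only regions in each library. The part of list length, run and that number in this difference was not tested beyond the equal-length values. The 2 classes were also not chosen alike. A Tconv-only region needed a peak in 4 lists of cells from animals, an iTreg-only region in 2 lists of cultured cells. Median widths were 487 bp for Tconv-only and 353 bp for iTreg-only regions. The part of this unequal rule and of the origin in animals was not tested.

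**Figure D3:**
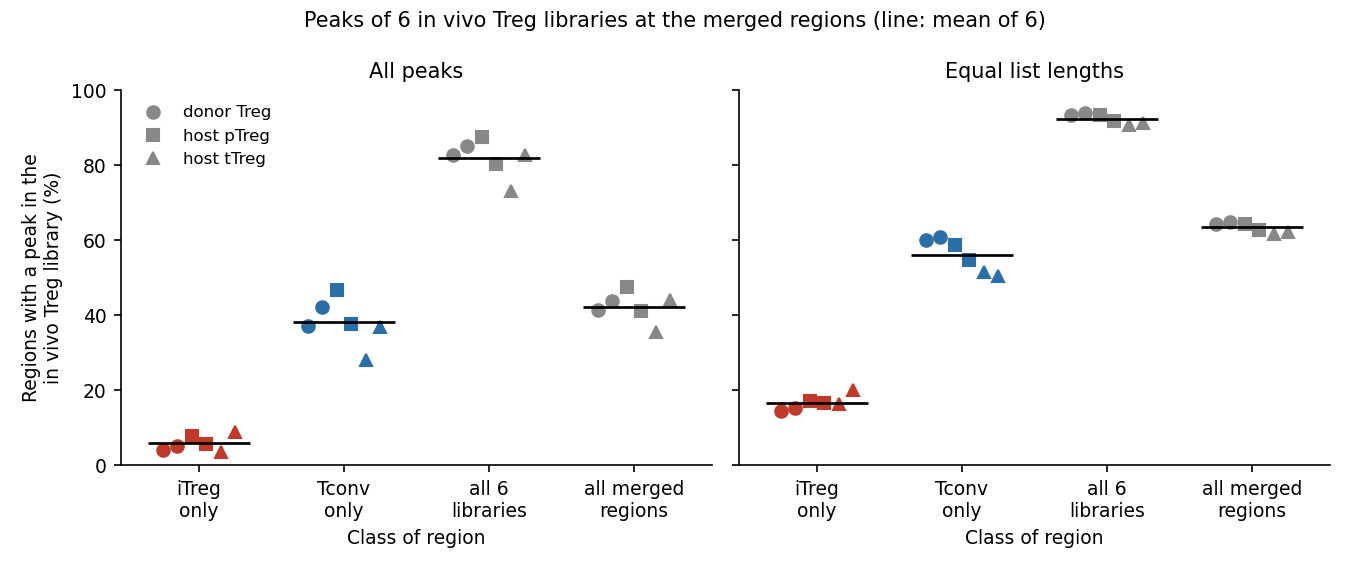
Share of regions in each class (%) that had a peak in each of the 6 in vivo Treg libraries (points by group) with their mean (lines), for all peaks on the left and equal list lengths on the right. The iTreg-only regions lie between 3.56% and 8.81% with all peaks, below the 28.2% to 46.9% of the Tconv-only regions.

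Sequences of 6 promoters and 2 microRNAs, a selection from the differing starts counted further on, are shown because differing regions lie on them. Each stretch gives the 120 bases just before the RefSeq start (GRCm38.p6, read 5′ to 3′ on the gene's strand), and capitals mark matches on either strand to 15 short motifs. Ifng, Ccr6, Slamf6 and Kit are among the genes named by the size of their net counts in these same data. Apart from Ccr6 and Ifng these promoters were also chosen after their values were seen. None of the promoters was thus picked independently of the data.
Ifng: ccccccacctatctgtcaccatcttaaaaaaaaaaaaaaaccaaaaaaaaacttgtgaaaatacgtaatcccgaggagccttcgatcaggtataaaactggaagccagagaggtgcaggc
Ccr6: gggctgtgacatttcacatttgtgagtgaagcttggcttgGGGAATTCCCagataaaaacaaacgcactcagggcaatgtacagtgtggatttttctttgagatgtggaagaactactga
Cd80: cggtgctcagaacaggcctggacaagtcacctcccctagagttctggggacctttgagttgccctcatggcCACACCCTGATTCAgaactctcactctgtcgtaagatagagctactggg
Ebi3: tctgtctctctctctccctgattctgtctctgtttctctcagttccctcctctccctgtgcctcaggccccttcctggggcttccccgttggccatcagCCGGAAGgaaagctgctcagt
Slamf6: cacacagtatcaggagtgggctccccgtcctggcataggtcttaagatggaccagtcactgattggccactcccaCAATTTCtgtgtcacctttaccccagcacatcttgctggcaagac
Kit: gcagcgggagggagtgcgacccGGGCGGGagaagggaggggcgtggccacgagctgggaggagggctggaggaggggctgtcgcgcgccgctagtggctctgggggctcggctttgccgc

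The Ifng promoter (chr10:118440926-118441045, plus strand) lay in a Tconv-only region. Ifng encodes interferon gamma, the signature cytokine of Th1 cells. Peaks there covered 0 and 0 bp in iTreg libraries, against 949 and 726 bp in donor Tconv and 486 and 547 bp in host Tconv libraries, and all 6 in vivo Treg libraries had a peak. The iTreg libraries were thus the only ones of the 12 with none listed at the start of Ifng, although 12 and 11 of its 15 regions carried an iTreg peak, against 15, 15, 11 and 13 in Tconv libraries. Ifngas1, the antisense RNA neighbouring Ifng, had a Tconv-only promoter region too, with 0 and 0 bp in iTreg libraries, against 430, 392, 268 and 387 bp in Tconv libraries.

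The Ccr6 promoter shown (chr17:8242406-8242525, plus strand), at a RefSeq start inside the gene, lay in an iTreg-only region. Ccr6 is a chemokine receptor of Th17 cells and of some Tregs. Its peak covered 417 and 402 bp in iTreg libraries, against 0 bp in all 4 Tconv libraries, and 2 of the 6 in vivo Treg libraries had one. Its capitals hold 2 overlapping matches of the short NF-kappaB motif GGGANTT (N any base), a motif found in 16.5% of all RefSeq promoter windows of 300 bases. The region at the outer start of Ccr6 (chr17:8235767-8236069) was not iTreg only. Of the 6 libraries compared, only iTreg replicate 1 had a peak there, covering 303 bp. The Cd80 promoter shown (chr16:38458813-38458932, plus strand) had 543 and 636 bp in iTreg libraries, against 0 bp in all 4 Tconv libraries, and a peak in all 6 in vivo Treg libraries. Another region in the gene body (chr16:38482842-38484185), 630 bp from a RefSeq start, had a peak in all 6 libraries compared. It covered 1224, 1137, 362 and 1049 bp in Tconv libraries. Cd80 is a ligand of CD28 and CTLA4, and its capitals hold a KLF match (GGGTGTG, 7.95% of all windows) next to an AP-1 match (TGANTCA, 7.81%).

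Ebi3 encodes the beta chain shared by IL-27 and IL-35. Its promoter (chr17:55952503-55952622, plus strand) had 461 and 625 bp in iTreg libraries, against 0 bp in all 4 Tconv libraries, with a peak in 5 of 6 in vivo Treg libraries and a match of ETS (CCGGAAG, 8.86% of all windows). The Slamf6 promoter (chr1:171917342-171917461, plus strand) had 902 and 784 bp in iTreg libraries, against 0 bp in all 4 Tconv libraries, and a peak in all 6 in vivo Treg libraries. Slamf6 is a homotypic receptor of lymphocytes, and its capitals mark a match of IRF (GAAANTG, 18.6%). Kit, the receptor for stem cell factor, had the widest of the 6 regions (chr5:75574344-75576519). Peaks there covered 1871 and 2165 bp in iTreg libraries, against 0 bp in all 4 Tconv libraries, and no in vivo Treg library had one; the capitals of its promoter (chr5:75574867-75574986, plus strand) mark a match of SP (GGGCGGG, 25.6%).

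A single Tconv-only region (chr11:75172058-75174126) held the genes of miR-212 and miR-132, a microRNA pair made from neighbouring hairpins. Peaks there covered 0 and 0 bp in iTreg libraries, against 1990, 1195, 1987 and 2052 bp in Tconv libraries, and all 6 in vivo Treg libraries had one. It is 1 of 41 wide regions listed in all 10 other libraries and in neither iTreg list, a set described further on. The 3p arms share their seed, bases 2 to 8, in capitals.
miR-132-3p: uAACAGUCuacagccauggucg
miR-212-3p: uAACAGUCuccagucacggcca

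Of the 32851 RefSeq promoter windows, which overlap where a gene has several starts, 824 met an iTreg-only region (2.51%, 745 genes) and 95 met a Tconv-only region (0.289%, 73 genes). AP-1 was found in 7.16% of iTreg-only windows, in 7.81% of all and in 4.30% of those open in all 6 libraries. The short NF-kappaB motif was found in 16.0%, 16.5% and 17.2% of these sets, and NFAT (TGGAAAA) in 4.00%, 6.73% and 4.26%. SP was found in 35.1% of iTreg-only windows, in 25.6% of all and in 49.3% of those open in all 6 libraries. ETS stood at 4.37% in iTreg-only windows, against 8.86% in all and 19.4% in those open in all 6 libraries. A match is a run of letters and not a bound site.

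Some wide promoter regions also lacked an iTreg peak, a count made after the data were seen. Of 7518 regions that had a peak in all 10 other libraries with a median covered length of 1 kb or more, 41 (0.545%) had none in either iTreg library. The same count for the other 5 groups of 2 libraries ran from 0 to 9 regions (at most 0.105%). Of the 41, 16 lay within 1 kb of a start, including those of Tgif1, a repressor of TGF-beta signalling, Chd4, a chromatin remodelling ATPase, Mov10 and Kcna3, a potassium channel of T cells. At Prkcq, the kinase PKC theta of the T cell receptor pathway, peaks covered 0 and 0 bp in iTreg libraries, against 3036, 3126, 1513 and 3852 bp in Tconv libraries. Whether a filter or mapping step left these regions out of the iTreg lists cannot be told from peak lists, and this limits what a missing iTreg peak at a wide region shows.

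Assigned to genes (the gene whose body held the midpoint, otherwise the nearest gene end within 50 kb), the regions fell at 15786 protein-coding genes. More iTreg-only than Tconv-only regions were found at 6457 genes (40.9%) and the opposite at 721 (4.57%); at equal list length the shares were 17.2% and 11% of 13543 genes. The genes with the largest net counts were large loci in which iTreg libraries had peaks along the whole gene.

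Rora, the nuclear receptor ROR alpha, led with 20 iTreg-only and 1 Tconv-only of 50 regions. It had 42 and 46 regions with a peak in iTreg libraries, against 24, 22, 19 and 24 in Tconv libraries. Of its 20 iTreg-only regions, 3 had a peak in all 6 in vivo Treg libraries. Jazf1, a zinc finger cofactor, had 16 iTreg-only regions, with 25 and 29 regions in iTreg libraries, against 7, 5, 4 and 6 in Tconv libraries. Dock1, an activator of the GTPase Rac, had 12, with 13 and 15 in iTreg libraries, against 1, 0, 0 and 0 in Tconv libraries.

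The other leading genes had none or 1 Tconv-only region. They were Tnr (17 iTreg-only regions), the tRNA-modifying enzyme gene Cdkal1 (16), the Notch coactivator Maml3 (15), the polarity gene Pard3 (13), Gse1 (13), Nav1 (12), Sorcs2 (12), 2900026A02Rik (11) and Hmcn2 (11). All 12 kept a net towards iTreg at equal list length, as the rule for naming them required, with 1 to 9 iTreg-only regions there.

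The leading Tconv genes had fewer differing regions. Khdrbs3, an RNA-binding splicing regulator, had 6 Tconv-only and 1 iTreg-only region, with 10 and 10 regions in iTreg libraries, against 14, 16, 12 and 15 in Tconv libraries; none of the 6 Tconv-only regions had a peak in any in vivo Treg library. Diaph3, a formin, had 5 Tconv-only and 1 iTreg-only region. Nek7, a kinase of the inflammasome, had 4 Tconv-only regions, and 3 of them carried peaks in all 6 in vivo Treg libraries. Cdk19, a Mediator kinase, had 4 Tconv-only and 1 iTreg-only region.

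Cxcr4, the receptor that holds lymphocytes in bone marrow, had 3 Tconv-only regions and no iTreg-only one. It had 5 and 7 regions in iTreg libraries, against 8 in each of the 4 Tconv libraries. The widest of the 3 (chr1:128602121-128603413) covered 0 and 0 bp in iTreg libraries, against 1253, 1219, 1109 and 1247 bp in Tconv libraries, and no in vivo Treg library had a peak there. Since the Tconv cells came from bone marrow and the iTreg cells from culture, tissue and cell state cannot be told apart at this gene. Cd28, the main costimulatory receptor, also had 3 Tconv-only regions, with 11 and 11 regions in iTreg libraries, against 14, 16, 13 and 14 in Tconv libraries. Gm1966, Med30, Raph1, Nemp2, Tbl1x and Ppp2r5a had 3 each.

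**Figure D4:**
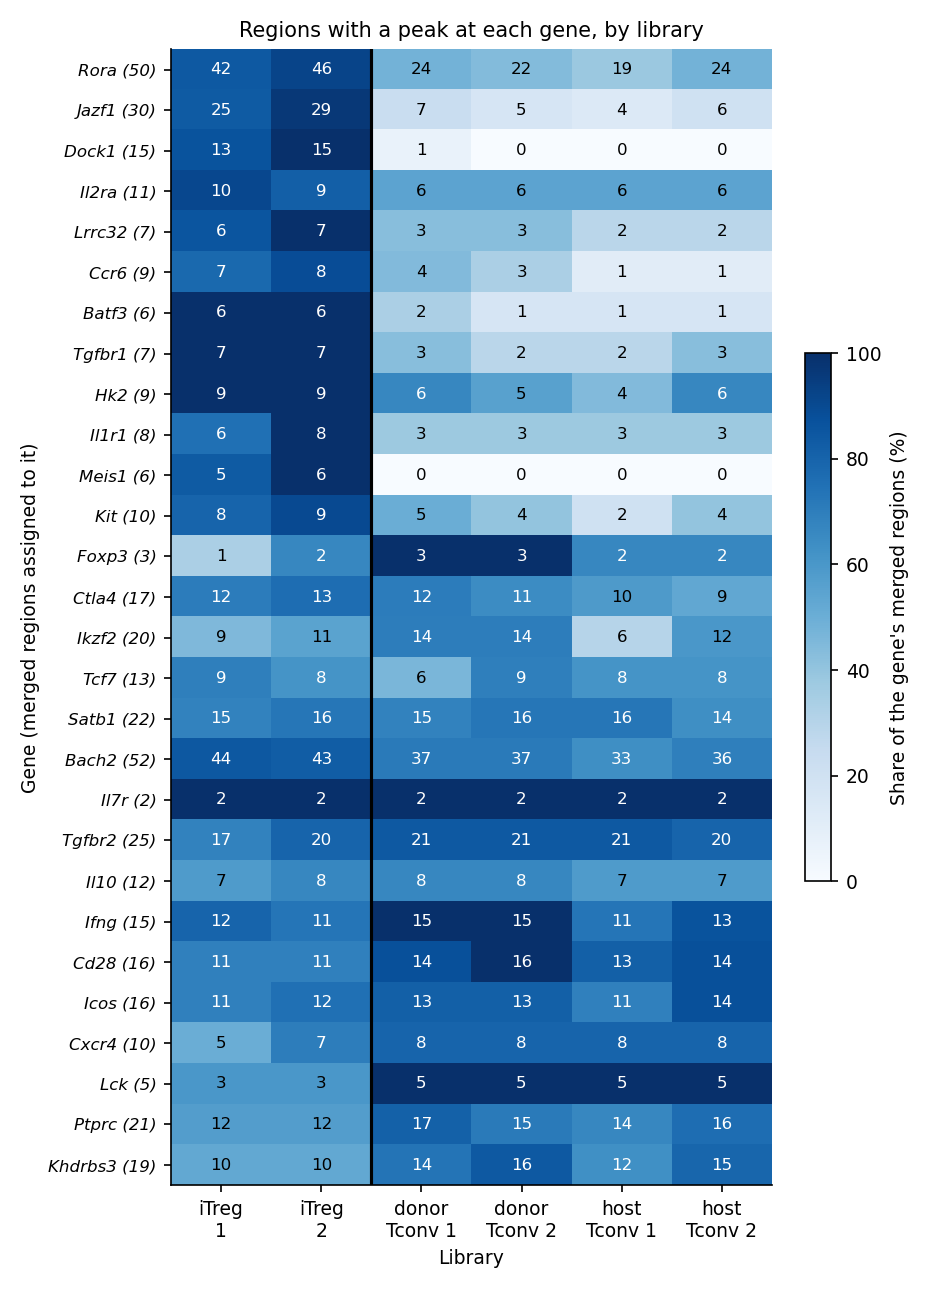
Regions with a peak at each gene (numbers) and their share of the gene's merged regions (colour, %), by library, with iTreg on the left of the black line. Rora, Jazf1, Dock1 and Meis1 had more regions in each iTreg library, while Lck, Cd28 and Cxcr4 had more regions in each Tconv library.

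The core Treg genes had both kinds of region. Of 173 regions at 20 such genes, 31 were iTreg only (17.9%, against 19.2% over all genes) and 16 were Tconv only (9.25%, against 2.84%). At equal list length the counts were 19 and 11 of 119 regions (16.0% and 9.24%, against 9.84% and 7.20% over all genes). With lists of the length of the shortest of the 6 the net turned to -1. With all peaks, genes with more iTreg-only regions numbered 9 of 20, against 40.9% of all genes. Those with more Tconv-only regions numbered 4 of 20, against 4.57% of all genes. The median net was 0.0 here and over all genes. Of the 16 Tconv-only regions, 12 (75%) had a peak in all 6 in vivo Treg libraries, against 22.7% of the Tconv-only regions over all genes. Of the 31 iTreg-only regions, 2 did (6.45%, against 1.82% over all genes). At 18 of the 31 no in vivo Treg library had a peak (58.1%, against 87.3% over all genes).

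At Foxp3 itself 3 regions were found, and iTreg libraries had 1 and 2 of them, against 3, 3, 2 and 2 in Tconv libraries. One in the gene body (chrX:7583919-7585032) covered 921 and 832 bp in iTreg libraries, against 391 and 431 bp in donor Tconv and 0 and 0 bp in host Tconv libraries. All 6 in vivo Treg libraries had a peak there, covering from 838 to 1052 bp. The single Tconv-only region, further along the gene (chrX:7587485-7587871), covered 0 and 0 bp in iTreg libraries, against 298, 273, 247 and 387 bp in Tconv libraries, and no in vivo Treg library had one. Between them lay a region (chrX:7586325-7586990) that covered 0 and 611 bp in iTreg libraries, against 548, 455, 357 and 435 bp in Tconv libraries, and was without a peak in the in vivo Treg libraries.

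Il2ra encodes CD25, on which the sorts were made, so its regions are no finding between iTreg and Tconv. It had 4 iTreg-only regions and 1 Tconv-only region. The 4 covered from 874 to 1331 bp in the iTreg libraries, and none had a peak in any of the 6 in vivo Treg libraries, whose cells were sorted as CD25 positive too. The Tconv-only region in the gene body (chr2:11657320-11658240) covered 0 and 0 bp in iTreg libraries, against 908, 798, 563 and 864 bp in Tconv libraries, with a peak in 3 in vivo Treg libraries. Tgfb1, whose propeptide is LAP, had 1 iTreg-only and 1 Tconv-only region. Lrrc32 encodes GARP, the docking receptor of latent TGF-beta on Tregs, and so is tied to the LAP sort as well. It had 3 iTreg-only regions, with 6 and 7 regions in iTreg libraries, against 3, 3, 2 and 2 in Tconv libraries.

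Ctla4, the inhibitory receptor of Tregs, had 3 iTreg-only regions and 1 Tconv-only region, with 12 and 13 regions in iTreg libraries, against 12, 11, 10 and 9 in Tconv libraries. Nt5e, which encodes the ectoenzyme CD73, and Socs2, a cytokine signalling inhibitor, had 4 iTreg-only regions each and no Tconv-only one. At equal list length Nt5e had 2 iTreg-only regions and Socs2 had 0. Il10, the anti-inflammatory cytokine, had 3 Tconv-only regions and 1 iTreg-only region, and all 3 of the Tconv-only ones had peaks in all 6 in vivo Treg libraries. The first of them in coordinates (chr1:131003150-131003773) covered 0 and 0 bp in iTreg libraries, against 624, 552, 322 and 508 bp in Tconv libraries. Tnfrsf9, the receptor 4-1BB, had 2 Tconv-only regions, both with peaks in all 6 in vivo Treg libraries. Ikzf2, the factor Helios, had 3 iTreg-only and 2 Tconv-only regions, and its net turned to -1 at equal list length, to -4 against donor Tconv alone and to -3 without host Tconv replicate 1.

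Genes of effector and tissue Tregs had 34 iTreg-only (22.2%, against 19.2% over all genes) and 8 Tconv-only (5.23%, against 2.84%) of 153 regions. At equal list length the counts were 13 (15.3%, against 9.84%) and 5 (5.88%, against 7.20%) of 85. Rora gave 20 of the 34. Batf, an AP-1 partner needed by effector Tregs, had 3 iTreg-only regions, with 6 and 6 regions in iTreg libraries, against 3, 2, 2 and 2 in Tconv libraries. Ccr6 had 3 as well, with 7 and 8 regions in iTreg libraries, against 4, 3, 1 and 1 in Tconv libraries. Maf and the Th1-type chemokine receptor gene Cxcr3 had 1 Tconv-only region each, both with peaks in all 6 in vivo Treg libraries, and Irf4 had 1 of each kind.

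At genes of naive and quiescent T cells the net count changed sign with list length. Of their 374 regions, 37 were iTreg only (9.89%, against 19.2% over all genes) and 20 Tconv only (5.35%, against 2.84%). At equal list length the counts were 18 and 39 of 292 regions (6.16% and 13.4%, against 9.84% and 7.20% over all genes). In both settings the iTreg-only share was below that over all genes and the Tconv-only share above it. Satb1, a chromatin organiser, had 3 iTreg-only regions and no Tconv-only one with all peaks, and 0 and 3 at equal list length. Its number of regions was 15 and 16 in iTreg libraries, against 15, 16, 16 and 14 in Tconv libraries, so the groups overlapped. The forkhead factor Foxp1 had 7 iTreg-only and 6 Tconv-only of 79 regions, and 2 and 11 at equal list length. Tcf7 and Lef1, which act downstream of Wnt, had 2 iTreg-only regions and 1 Tconv-only region each, and their nets were -2 and -1 at equal list length. Bach2, a repressor that restrains effector programs, kept its direction with 7 and 1 of 52 regions, and 5 and 3 at equal list length. Bcl2, the survival factor, had 1 iTreg-only and 4 Tconv-only regions, and with peaks of 300 bp or more its net was 1 towards iTreg. Il7r had a peak at both of its regions in all 6 libraries.

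TGF-beta signalling genes had regions of both kinds. The list had 21 iTreg-only (10.9%, against 19.2% over all genes) and 12 Tconv-only (6.22%, against 2.84%) of 193 regions. At equal list length it had 12 (9.38%, against 9.84%) and 13 (10.2%, against 7.20%) of 128, where the net was -1. Tgfbr1, the type I receptor, had 3 iTreg-only regions, with 7 and 7 regions in iTreg libraries, against 3, 2, 2 and 3 in Tconv libraries. Tgfbr2, the type II receptor that binds the ligand, had 3 Tconv-only regions, with 17 and 20 regions in iTreg libraries, against 21, 21, 21 and 20 in Tconv libraries; at equal list length it had 6 and no iTreg-only one. The one of these 3 Tconv-only regions nearest a start (chr9:116187241-116188025) covered 0 and 0 bp in iTreg libraries, against 659, 704, 616 and 785 bp in Tconv libraries. Tgfbr3, a coreceptor, had 4 iTreg-only regions and 1 Tconv-only region of 35. Among inhibitors of the pathway, Skil had 3 iTreg-only regions and Pmepa1 had 2, Ski had 2 Tconv-only ones, and Smad7 had 1 iTreg-only and 2 Tconv-only regions. At equal list length Skil had 0 iTreg-only regions and Pmepa1 had 4. Smad3, a signal transducer, had 2 Tconv-only regions; the net at Smad3 was 1 towards iTreg against host Tconv alone and with peaks of 300 bp or more.

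Genes of IL-2 and STAT5 signalling were mostly shared, with 64.5% of their 107 regions in all 6 libraries, against 43.0% over all genes. Their counts were 10 iTreg-only (9.35%, against 19.2% over all genes) and 6 Tconv-only regions (5.61%, against 2.84%). The net was -1 at equal list length. Stat5b, the STAT5 form that transmits most of the IL-2 signal, had 2 Tconv-only regions and 1 iTreg-only region, and both Tconv-only ones had peaks in all 6 in vivo Treg libraries. The wider of them (chr11:100845217-100846588) covered 0 and 0 bp in iTreg libraries, against 1219, 1101, 912 and 1328 bp in Tconv libraries, and is also 1 of the 41 wide regions missing from the iTreg lists alone. Jak1 had 4 iTreg-only and 2 Tconv-only regions, Bcl2l1 had 2 iTreg-only ones and Il2rb 1 Tconv-only one.

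Genes of activation had more iTreg-only than Tconv-only regions with all peaks, at iTreg-only shares below the 19.2% over all genes. Factors induced by the T cell receptor had 26 iTreg-only (14.1%) and 6 Tconv-only (3.26%, against 2.84% over all genes) of 184 regions, and a net of -1 at equal list length. Tnfaip3, the NF-kappaB inhibitor A20, had 4 iTreg-only regions and Bhlhe40 had 3. At equal list length Tnfaip3 had 1 of each kind and Bhlhe40 had 2 iTreg-only regions. AP-1, BATF and NF-kappaB family genes had 17 iTreg-only (15.6%) and 3 Tconv-only (2.75%) of 109 regions, and 6 (8.22%, against 9.84% over all genes) and 2 (2.74%, against 7.20%) at equal list length. Batf3, a BATF family member, had a peak at all 6 of its regions in both iTreg libraries, against 2, 1, 1 and 1 in Tconv libraries. Nfkb1, the p50 subunit gene, had 5 iTreg-only regions with 20 and 20 regions in iTreg libraries, against 15, 15, 15 and 17 in Tconv libraries. Jun had 2, with 5 and 10 regions in iTreg libraries, against 2 in each Tconv library. At equal list length Jun had 0 iTreg-only regions, Batf3 had 1 and Nfkb1 had 4.

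Proliferation and glycolysis genes had 22 iTreg-only (15.6%, against 19.2% over all genes) and 3 Tconv-only (2.13%, against 2.84%) of 141 regions. At equal list length they had 15 (15.8%) and 4 (4.21%) of 95, against 9.84% and 7.20% over all genes. With all peaks, more iTreg-only regions were found at 13 of the 21 genes, against 40.9% of all genes. More Tconv-only ones were found at 1, against 4.57% of all genes. This was Cdkn1b, which encodes the cell cycle inhibitor p27. Hk2, the hexokinase of activated lymphocytes, had 3 iTreg-only regions, with 9 and 9 regions in iTreg libraries, against 6, 5, 4 and 6 in Tconv libraries. Peaks at its start (chr6:82772936-82775905) covered 2948 and 2932 bp in iTreg libraries, against 1508, 2206, 753 and 1223 bp in Tconv libraries, and the in vivo Treg libraries had from 552 to 1132 bp. The glucose transporter gene Slc2a1 had 3 iTreg-only regions too. At equal list length Slc2a1 had 1 of each kind, and Hk2 had 5 iTreg-only regions.

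For the helper lineages, no difference between lists was tested. Th1 and cytotoxic genes had 10 iTreg-only (8.26%, against 19.2% over all genes) and 7 Tconv-only (5.79%, against 2.84%) of 121 regions, with a net of -6 at equal list length and of -1 against donor Tconv alone; without host Tconv replicate 1 it was -2. Besides Ifng with 2, Il18r1 had 2 Tconv-only regions and Tbx21, the Th1 master factor, had 1, while Runx3 had 2 iTreg-only ones. Th2 genes had 8 iTreg-only (21.1%, near the share over all genes) and no Tconv-only of 38 regions, of which Cyp11a1, a steroid-making enzyme gene also active in Th2 cells, gave 4 and Gata3, the Th2 master factor, 2. Th17 genes had 8 (21.1%) and 3 (7.89%) of 38 and a net of -2 with lists of the length of the shortest of the 6, with 4 iTreg-only regions at Il1r1 and 2 Tconv-only and 1 iTreg-only at Il23r. Tfh genes had 6 (10.7%) and 2 (3.57%) of 56, 1 of the Tconv-only ones at Bcl6, and a net of -9 at equal list length.

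Costimulatory and death receptor genes had 17 iTreg-only (15.6%, against 19.2% over all genes) and 9 Tconv-only (8.26%, against 2.84%) of 109 regions, with a net of -5 at equal list length. Tnfsf11, which encodes RANK ligand, had 5 iTreg-only regions and Tnfsf4, which encodes OX40 ligand, had 3. At equal list length Tnfsf11 had 0 iTreg-only regions and Tnfsf4 had 1. Icos, a relative of Cd28, had 3 Tconv-only regions and 1 iTreg-only region. Inhibitory receptor and anergy genes had 16 (11.3%) and 10 (7.09%) of 141 regions, read against the same shares over all genes, and a net of -9 at equal list length; Btla, with 4 iTreg-only regions, had a net of -1 there. Homing and integrin genes had 10 (9.09%) and 8 (7.27%) of 110 regions and a net of -7 at equal list length; the net was -4 without host Tconv replicate 1 and -1 without iTreg replicate 2.

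Pan-T and CD4 lineage genes were the single list of the 21 in which Tconv-only regions outnumbered iTreg-only ones with all peaks. Of their 209 regions, 13 were iTreg only (6.22%, against 19.2% over all genes) and 17 Tconv only (8.13%, against 2.84%). At equal list length the counts were 9 and 23 of 167 (5.39% and 13.8%, against 9.84% and 7.20% over all genes). Against host Tconv alone the net was 1 towards iTreg. More Tconv-only regions were found at 6 of the 18 genes (33.3% of them, against 4.57% of all genes). These 18 genes held 209 regions, against 66399 at all 15786 genes, so each had on average more regions that could differ. Lck, the kinase that starts receptor signalling, had 3 and 3 regions in iTreg libraries, against 5 in each Tconv library. Ptprc, which encodes CD45, had 3 Tconv-only regions, with 12 and 12 regions in iTreg libraries, against 17, 15, 14 and 16 in Tconv libraries; its products mark donor and host in the sort, and with peaks of 300 bp or more its net was 1 towards iTreg. Cd3e had 1 Tconv-only region and Cd4 neither kind.

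**Figure D5:**
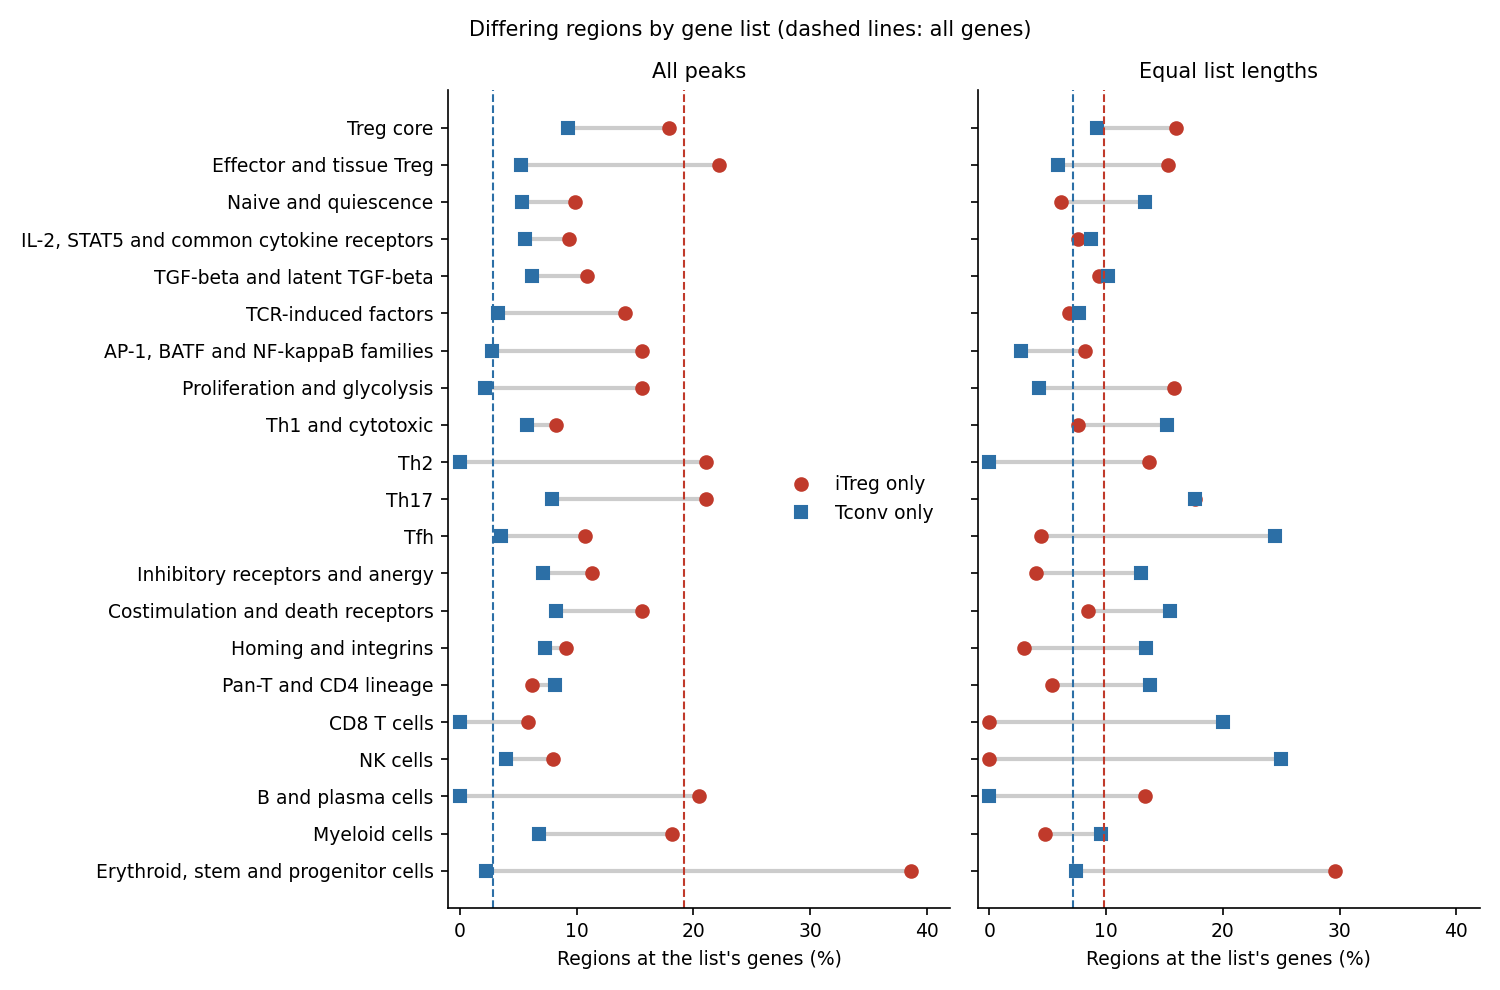
Share of each list's regions (%) that were iTreg only (red circles) or Tconv only (blue squares), with all peaks on the left and equal list lengths on the right; dashed lines give the shares over all genes. Pan-T and CD4 lineage genes had 6.22% iTreg-only and 8.13% Tconv-only regions, and stem and erythroid genes 38.6% iTreg-only.

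Markers of CD4 T cells were present in all 6 libraries, with 36 and 39 regions summed over 8 markers in iTreg libraries, against 43 to 47 in Tconv libraries. Markers of Tregs summed to 43 and 47 regions in iTreg libraries, against 29 to 42 in Tconv libraries. Of these 7 markers, Il2ra and Lrrc32, both tied to the sort, and Tnfrsf18 had more regions in each iTreg library. Foxp3, Ctla4, Ikzf2 and Ikzf4 did not. The sums are not scaled to list length. Per 10000 regions of a library, the 20 core Treg genes had 20.9 and 21.0 in iTreg libraries, against 24.6 to 27.4 in Tconv libraries. Markers of naive T cells summed to 61 and 59 in iTreg libraries, against 55 to 61 in Tconv libraries. Markers of other cells were listed too. Erythroid and stem cell markers summed to 14 and 15 regions in iTreg libraries, against 6 to 9 in Tconv libraries. Most of this gap lay at Kit, with 8 and 9 regions in iTreg libraries, against 5, 4, 2 and 4 in Tconv libraries. Klf1 had 1 region in every library. B cell markers summed to 8 and 10 in iTreg libraries, against 1 to 3 in Tconv libraries. No library had a region at Ms4a1 and Cd79a, 2 of the 4 B cell markers. NK cell markers summed to 5 and 5 in iTreg libraries and to 4 in each Tconv library, CD8 T cell markers to 7 and 6 in iTreg and 5 to 8 in Tconv libraries, and myeloid markers to 13 and 14 in iTreg and 9 to 12 in Tconv libraries, with none at Csf1r. Their part in the results was not tested.

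The longer lists of these cell types differed among themselves. Erythroid, stem and progenitor genes had 17 iTreg-only (38.6%, against 19.2% over all genes) and 1 Tconv-only (2.27%, against 2.84%) of 44 regions, the highest iTreg-only share of the 21 lists. At equal list length they had 8 (29.6%, against 9.84%) and 2 (7.41%, against 7.20%) of 27. Meis1 gave 5 of the 17 and Kit 4. More iTreg-only regions were found at 9 of the 12 genes, against 40.9% of all genes. Among these, Flt3 had a net of -1 at equal list length. Meis1, a homeobox gene of stem cells, had 5 and 6 of its 6 regions in iTreg libraries, against 0 in all 4 Tconv libraries, and its region at the start (chr11:19018722-19019461) had a peak in all 6 in vivo Treg libraries. Kit had 8 and 9 of 10 regions in iTreg libraries, against 5, 4, 2 and 4 in Tconv libraries. B and plasma cell genes had 8 (20.5%) and 0 of 39, with 7 and 8 regions at Pax5 in iTreg libraries, against 3, 2, 1 and 2 in Tconv libraries. Myeloid genes had 8 (18.2%) and 3 (6.82%) of 44, NK cell genes 2 (8%) and 1 of 25, and CD8 T cell genes 1 (5.88%) and 0 of 17, with nets of -1, -3 and -1 at equal list length.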

How the data were processed

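Each of the 12 libraries came with 1 deposited peak list of chromosome, start, end, name and score. The submitters' processing notes name mm10, bedtools, HOMER 4.10 and Bowtie2 2.3.3; settings, any transposase shift and depth per list were not given in the sources used here. The deposited score is 1000 for every peak, so it ranks nothing and was not used; the deposited start and end positions are the measurement, and no heights were analysed here. Groups came from the sample titles. Peaks were merged and classed in Python 3.11.15 with numpy 2.4.6 and pandas 2.3.3, and the code was checked on simulated lists. Gene ends and promoter sequences came from RefSeq tables of GRCm38.p6, which shares coordinates with mm10; 90.0% of regions were assigned to a gene, and all 302 genes of the 21 lists were found. No genome was used, so motifs were searched in promoter windows only, in place of the region centres planned. Libraries were compared by two-sided exact permutation tests over 15 splits. Named genes are the 12 with the largest net in each direction that kept their sign at equal list length. Up to 4 a list and direction, by size of net, and 20 set genes were added. The text gives a selection of the 144, and promoters apart from those of Ccr6 and Ifng were chosen after their values were seen. The lists cover core Treg genes, genes of effector or tissue Tregs, naive and quiescence, IL-2 and STAT5, TGF-beta, TCR-induced, AP-1 and NF-kappaB, proliferation and glycolysis, Th1, Th2, Th17, Tfh, inhibitory, costimulation, homing, pan-T, CD8, NK, B, myeloid, and erythroid and stem genes. Members and lists were chosen with earlier results of these data known. One gene of the set is not reported here.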

Additional observations from a re-analysis of the deposited data

How the results depend on the processing

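The 14545 iTreg-only and 2129 Tconv-only regions depended on list length and on which libraries were compared. Lists of equal length over the 12 gave 3986 and 2960, and lists of the length of the shortest of the 6 (37050 peaks) gave 5565 and 4156; iTreg-only regions remained more numerous in both. Of the equal-length regions, 62.2% of the iTreg-only and 28.3% of the Tconv-only ones overlapped regions of the same class with all peaks, and 1883 of the 2960 equal-length Tconv-only regions (63.6%) had a narrower peak in both full iTreg lists. Peaks of 300 bp or more gave 9462 iTreg-only regions, donor Tconv alone gave 4133 Tconv-only regions, and leaving out host Tconv replicate 1, the shortest of the 6 lists, gave 3237. Leaving out each library in turn gave 14654 to 20625 iTreg-only and 2221 to 3237 Tconv-only regions. The mean in vivo Treg share moved to 16.6% for iTreg-only and 56.1% for Tconv-only regions at equal length. Differences between library means kept their sign under every alternative run. Leave-one-out values ran from 15092.5 to 19942.5 peaks, from -5.06 to -3.45 percentage points near a gene end and from -56.8 to -34.2 bp in median width. With the replicate number as a block the differences stayed at 17517.5 peaks, -4.47 points and -45.2 bp (exact permutation p = 0.222 for each, from 9 arrangements); the labels link same-numbered libraries to no shared animal or day, and deviations from group means correlated at 0.00304 (iTreg with donor Tconv), -0.0160 (iTreg with host Tconv) and -0.0822 (donor with host Tconv) over regions.

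Net counts (iTreg only minus Tconv only) that changed sign at equal length over the 12 lists were naive -21, IL-2 and STAT5 -1, TGF-beta -1, TCR-induced -1, Th1 -6, Tfh -9, inhibitory -9, costimulation -5, homing -7, CD8 -1, NK -3 and myeloid -1, and the genes Ikzf2 -1, Tcf7 -2, Lef1 -1, Satb1 -3, Foxp1 -9 and Btla -1. At the length of the shortest of the 6 they were Treg core -1, naive -14, IL-2 and STAT5 -1, TGF-beta -2, Th1 -7, Th17 -2, Tfh -2, inhibitory -13, costimulation -4, homing -9, CD8 -1, NK -3, Foxp1 -14 and Il1r1 -1. With peaks of 300 bp or more they were NK -1, Foxp1 -2, and towards iTreg Bcl2 1, Smad3 1 and Ptprc 1. Against donor Tconv alone they were Th1 -1, homing -8, NK -2, Ikzf2 -4 and Lef1 -1, and against host Tconv alone pan-T 1 and Smad3 1. Foxp1 had -1 with genes within 10 kb. Leaving out each library gave nets from -2 to 6 for Th1, -4 to 9 for homing and -3 to 3 for Ikzf2, the lowest without host Tconv replicate 1, and homing had -1 without iTreg replicate 2. Single genes also lost iTreg-only regions at equal length over the 12 lists, down to 0 at Tnfsf11, Socs2, Skil and Jun. Hk2 went from 3 to 5 and Pmepa1 from 2 to 4. The causes were not tested. Merging at 100 bp of overlap or over gaps of 200 bp changed no sign. Searching 400 bp windows for motifs was not run, since no genome was used.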

Other observations

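Differing regions were also looked at as stretches, runs of regions of 1 class at most 25 kb apart, a grouping chosen after the data were seen. The iTreg-only regions formed 9904 stretches, of which 159 held 5 or more, and the Tconv-only regions 1852, of which 1, at Khdrbs3, held 5. The longest by count lay at chr1:135805504-135958856 over the muscle and epithelial genes Tnnt2, Tnni1, Pkp1, Lad1 and Igfn1, with 14 iTreg-only regions, 12 of them without a peak in any in vivo Treg library. A stretch of 11 at Emsy and Lrrc32 (chr7:98522732-98589462) differed in that 3 of its regions were without an in vivo Treg peak. Of the Tconv-only stretches, one with 4 regions spanned Lck and Hdac1, another Gimap6, Gimap8 and Gimap9, which encode GTPases of lymphocyte survival, and another Ifi47 and Tgtp2, GTPases induced by interferon.

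Some iTreg-only regions were in all 6 in vivo Treg libraries, so that the 4 Tconv libraries alone lacked them. These 264 regions fell at 217 genes, led by Phlpp1, a phosphatase that acts on AKT, and Rora with 3 each. The 492 Tconv-only regions in all 6 in vivo Treg libraries fell at 395 genes, led by Ets1, Il10, Nek7 and Nrp1 with 3 each. Nrp1 was used to sort the host Treg groups. The 941 Tconv-only regions in none of them were led by Khdrbs3 with 6, followed by genes with 3 such as Akap13, Baz2b, Bcl2 and Etv6.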
